A study of Homo sapiens with 12 samples.

Results

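The regions described here are the 2000 H3K27me3 peaks with the highest deposited score in the GSK-126 library of T24 cells, an established human bladder cancer line. They were taken from 202918 peaks of that library on chromosomes 1 to 22, of which they are 0.986%, and ties at the last score were ordered by chromosome name and start. The peaks lie in 1958 of the 273664 consensus intervals in which the authors counted fragments, and the values of these intervals were followed through 4 ChIP-seq libraries. Those libraries came from cells given both compounds at 5 µM each, the EZH2 inhibitor GSK-126 at 5 µM or the synthetic retinoid fenretinide at 5 µM, all for 72 h, and from cells given DMSO as vehicle. All 4 groups are T24 cells with no labelled genetic change, each group has 1 library, and the 4 input and 4 RNA libraries of the series were not analysed here. The values hold a histone mark only, so the identity of the line was not checked against expressed markers.

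H3K27me3 is the trimethyl mark on lysine 27 of histone H3 that EZH2, the catalytic subunit of Polycomb repressive complex 2, places on chromatin. In mammalian cells the mark sits in focal peaks over silent CpG-rich promoters of developmental genes and in broad, weaker domains over silent intergenic and intronic sequence. GSK-126 competes with the methyl donor in the catalytic site of EZH2, and fenretinide is a synthetic derivative of retinoic acid.

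The score that chose the peaks ran over the 2000 regions between 83 and 4006, with a median of 97, against 10 to 83 and a median of 17 in the other GSK-126 peaks on the same chromosomes. Most were close to the low end, with 75.55% of the scores at or under 110, 42 over 200 and 14 over 500. At the threshold 103 peaks tied at 83, and 17 of them were kept. The last 3 inside were near PAX6, OR4A47 and MIR4490 on chromosome 11. The first 3 outside were near FAT3 on chromosome 11 and LOC102723921 and PLCZ1 on chromosome 12, so the boundary separates peaks of equal score. The chosen peaks were long, with a median of 8268 bp against 1628 bp in the other peaks. The 2000 highest scoring peaks of the other libraries were also long, with medians of 8150.5 bp (combination), 7559 bp (fenretinide) and 7629 bp (vehicle).

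Of these 2000 peaks, 40 (2%) held at least 1 whole promoter window of the RefSeq tables, 250 bases before to 50 after a gene start, against 1.75% of the other GSK-126 peaks. These shares were not adjusted for peak length, whose medians were 8268 bp and 1628 bp. The 50 windows belonged to 42 genes and held a median of 12 CpG dinucleotides, against 9 in windows under the other peaks and 14 over all 35116 windows. At least 20 CpG were present in 38% of the windows inside the chosen peaks, 33.9% of those inside the other peaks and 41.2% of all windows. The 5 windows below, from RefSeq on GRCh38.p14, are shown because they span that range of CpG content and because their peaks took different courses over the 4 libraries. Capitals mark each CpG, the letters CG, which read the same on both strands. LRFN5, encoding a synaptic adhesion protein, has 35 CpG at chr14:41606626-41606925 on the plus strand. SORCS3, encoding a sorting receptor of neurons, has 35 CpG at chr10:104641040-104641339 on the plus strand. ZNF875, a zinc-finger gene, has 18 CpG at chr19:37312587-37312886 on the plus strand. KCNN2, encoding a calcium-activated potassium channel, has 22 CpG at chr5:114361820-114362119 on the plus strand. OR4C46, an olfactory receptor gene, has 1 CpG at chr11:54603949-54604248 on the minus strand.
LRFN5: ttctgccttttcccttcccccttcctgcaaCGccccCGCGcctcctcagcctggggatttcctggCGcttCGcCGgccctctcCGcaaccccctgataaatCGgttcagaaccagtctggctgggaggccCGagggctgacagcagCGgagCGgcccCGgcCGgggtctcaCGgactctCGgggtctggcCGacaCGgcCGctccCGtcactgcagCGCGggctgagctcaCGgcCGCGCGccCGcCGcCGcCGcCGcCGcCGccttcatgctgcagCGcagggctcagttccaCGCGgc
SORCS3: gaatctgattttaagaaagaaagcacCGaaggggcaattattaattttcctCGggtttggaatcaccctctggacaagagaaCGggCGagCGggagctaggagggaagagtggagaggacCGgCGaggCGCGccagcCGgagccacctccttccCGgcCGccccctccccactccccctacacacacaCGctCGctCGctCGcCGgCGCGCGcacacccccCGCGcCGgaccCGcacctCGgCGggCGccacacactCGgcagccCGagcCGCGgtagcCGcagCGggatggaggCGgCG
ZNF875: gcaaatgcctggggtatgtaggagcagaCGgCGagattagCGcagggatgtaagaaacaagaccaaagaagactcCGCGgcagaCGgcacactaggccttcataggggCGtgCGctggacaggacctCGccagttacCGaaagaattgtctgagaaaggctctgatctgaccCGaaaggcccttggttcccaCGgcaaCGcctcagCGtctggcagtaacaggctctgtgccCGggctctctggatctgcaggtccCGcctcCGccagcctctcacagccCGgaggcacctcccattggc
KCNN2: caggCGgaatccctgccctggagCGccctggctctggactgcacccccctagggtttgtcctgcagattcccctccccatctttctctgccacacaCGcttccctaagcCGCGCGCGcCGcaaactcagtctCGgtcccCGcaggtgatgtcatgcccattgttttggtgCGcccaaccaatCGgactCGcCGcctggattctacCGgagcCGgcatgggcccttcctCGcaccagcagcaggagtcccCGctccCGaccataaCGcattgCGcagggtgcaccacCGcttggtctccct
OR4C46: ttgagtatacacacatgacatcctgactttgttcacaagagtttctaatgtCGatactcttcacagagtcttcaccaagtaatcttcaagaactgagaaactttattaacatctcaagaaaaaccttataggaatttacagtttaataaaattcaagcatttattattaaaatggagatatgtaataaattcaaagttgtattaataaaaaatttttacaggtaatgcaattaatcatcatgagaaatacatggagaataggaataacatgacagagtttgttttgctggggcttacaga

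Fragment counts below are raw counts of the consensus interval, and a ratio is the share of one library's interval fragments divided by that of another, with the 95% counting interval in brackets. The counting interval covers counting error only, so a ratio compares 2 libraries, with no replicate check. A spike-in is named by none of the labels, and a higher share need not be a larger amount of the mark. The 2-fold rule calls an interval higher from a ratio of 2 upward and lower from 0.5 downward, provided that the counting interval leaves out 1 and both libraries sum to 20 fragments or more. The GSK-126 library chose the regions, so its own values are given as a description. The vehicle, fenretinide and combination libraries were not used in that choice.

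The interval with the CpG-rich LRFN5 window held 394 fragments with the combination, 560 with GSK-126, 135 with fenretinide and 129 with vehicle. The combination and GSK-126 values stood apart from the fenretinide and vehicle values, and the combination ratio against vehicle was 3.31 (2.71 to 4.07). The SORCS3 interval, whose window holds as many CpG, had 1628 fragments with the combination, 1738 with GSK-126, 2067 with fenretinide and 2015 with vehicle. Its combination ratio against vehicle was 0.875 (0.820 to 0.935). Equal CpG counts were thus found beside interval ratios on either side of 1. The LRFN5 peak spans 11558 bp of an interval of 11802 bp. The SORCS3 peak spans 13172 bp of an interval from 104582393 to 104675300, so its ratio covers mostly sequence outside the peak. ZNF875 had 486 fragments with the combination, 726 with GSK-126, 137 with fenretinide and 97 with vehicle, a combination ratio of 5.43 (4.36 to 6.82) against vehicle. The OR4C46 interval, with its single CpG in the window, had 2965 fragments with the combination, 3407 with GSK-126, 1721 with fenretinide and 1092 with vehicle, and a combination ratio of 2.94 (2.74 to 3.16). At KCNN2 the counts were 243 with the combination, 323 with GSK-126, 78 with fenretinide and 121 with vehicle. Its combination ratio against vehicle was 2.18 (1.74 to 2.73), while its fenretinide ratio was 0.583 (0.433 to 0.782), so the combination value lay above vehicle and the fenretinide value below it.

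The series contains 15812933 fragments in intervals for the combination, 16156194 for GSK-126, 18928836 for fenretinide and 17133107 for vehicle. The intervals of the 2000 peaks covered 48.3 Mb, or 3.72% of the interval length. They held 8.03% of the combination fragments, 8.56% of the GSK-126 fragments, 7.05% of the fenretinide fragments and 6.58% of the vehicle fragments. All 4 shares exceeded the share of length, the vehicle share included. In a median interval this came to 29.8 fragments per kb with the combination, 34.4 with GSK-126, 25.3 with fenretinide and 19.6 with vehicle. A peak covered a median of 71.5% of its interval, since intervals join peaks of all 4 libraries, and 38 intervals held more than 1 of the 2000 peaks.

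The 10 highest scores came from peaks of 662 to 8876 bp, of which 8 were intergenic and 2 lay at transcript ends. The peak of rank 1, on chromosome 16 from 46386206 to 46392025, lies 180 kb from ANKRD26P1, a pseudogene. It scored 4006 and its interval held 24427 fragments with the combination, 28053 with GSK-126, 4744 with fenretinide and 1664 with vehicle. All 3 treated libraries were above vehicle, by a ratio of 15.9 (15.1 to 16.7) for the combination and 2.58 (2.44 to 2.73) for fenretinide. A second peak 1267 bp further along, rank 8, had 5325 fragments with the combination, 6214 with GSK-126, 1047 with fenretinide and 360 with vehicle. The order of the libraries was the same at both. Rank 2, a peak of 662 bp on chromosome 17 with the microRNA gene MIR4522 as its nearest gene at 408 kb, had 1459 fragments with the combination, 2054 with GSK-126, 175 with fenretinide and 39 with vehicle. Its ratio was 40.5 (29.5 to 57.2) for the combination and 4.06 (2.86 to 5.90) for fenretinide, both against vehicle.

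**Figure D1:**
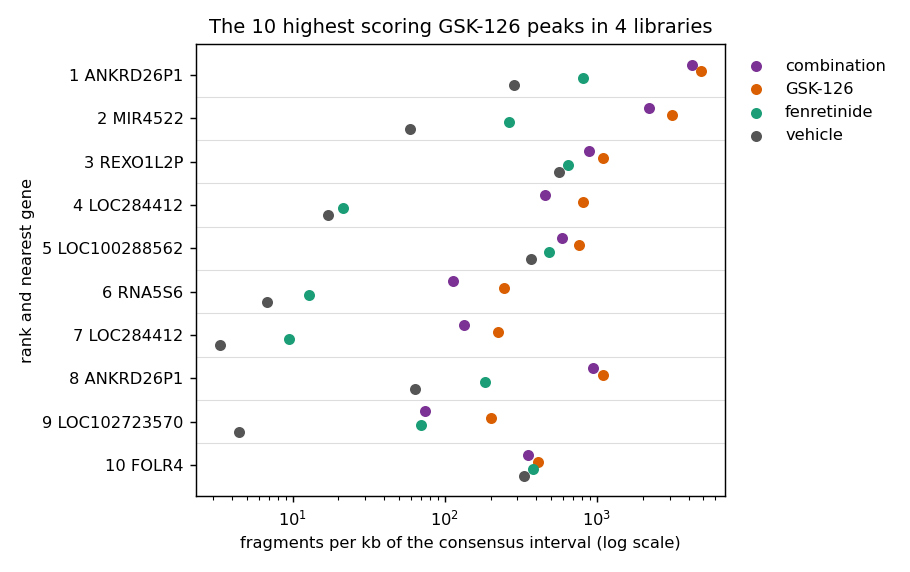
Fragments per kb of the consensus interval (horizontal log axis) for the 10 highest scoring GSK-126 peaks (rows, with rank and nearest gene), 1 point per library. At rank 1 the points sit at 4196 for the combination, 4819 for GSK-126, 815 for fenretinide and 286 for vehicle, while at rank 10 near FOLR4 they lie between 329 and 408.

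Other peaks among the first 10 were unlike these. Near REXO1L2P on chromosome 8, a pseudogene of a family in tandem copies, the counts were 1559 with the combination, 1926 with GSK-126, 1133 with fenretinide and 991 with vehicle. The region was already dense with vehicle, and its combination ratio of 1.70 (1.57 to 1.85) did not reach the 2-fold rule. FOLR4, the older symbol of the egg receptor for a sperm surface protein, was nearest to rank 10, with 3142 fragments with the combination, 3651 with GSK-126, 3410 with fenretinide and 2946 with vehicle. Its combination ratio was 1.16 (1.10 to 1.22). By contrast, the peak of rank 6 over RNA5S6, a gene for 5S ribosomal RNA, had 351 fragments with the combination, 759 with GSK-126, 40 with fenretinide and 21 with vehicle. It was called higher with the combination, at 18.1 (11.7 to 29.6), and its fenretinide ratio of 1.72 (0.993 to 3.08) spanned 1. The peak of rank 9, near LOC102723570 on chromosome 21, stood out in another way, with 50 fragments with the combination, 136 with GSK-126, 47 with fenretinide and 3 with vehicle. Here fenretinide alone was at 14.2 (4.56 to 71.2) times the vehicle share, close to the combination. Several of these places, among them REXO1L2P and RNA5S6, belong to multicopy families, and the sources used here do not give how reads matching several copies were placed. Whether the other places among the first 10 hold repeated sequence was not tested, and the counts were not corrected by the input libraries.

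The combination against vehicle, the comparison of both compounds with neither, showed a higher share in more of these intervals than in intervals at large. Of 1953 intervals tested, 739 (37.8%) were called higher, against 24.1% of all intervals tested, and 4 (0.205%) were called lower, against 15.8%. The median log2 ratio was 0.66 (0.61 to 0.72 by order statistics), against 0.06 over all intervals. Intervals holding other GSK-126 peaks stood between, with 30.2% called higher, 8.53% called lower and a median of 0.35. Where the libraries were scaled to the 25% of intervals with the fewest fragments per kb, every combination ratio against vehicle dropped by 0.81 on the log2 scale. The median of these intervals then turned to -0.15, with 284 called higher and 254 lower, and that of all intervals to -0.76. The distance between the medians, 0.60, is the same under any such scaling, so the direction of these intervals is set by the scaling and their place above the others is not.

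**Figure D2:**
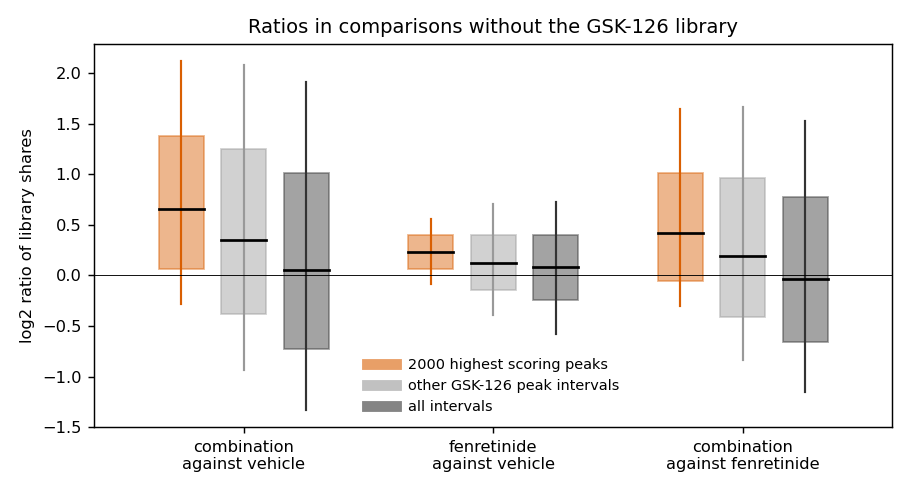
Log2 ratio of library shares (vertical axis) in the 3 comparisons that leave out the GSK-126 library, for the intervals of the 2000 peaks, intervals of other GSK-126 peaks and all intervals. Boxes span the middle 50% of intervals, lines the 10th to 90th percentile and black bars the median, and the medians of the 2000 peaks are 0.66, 0.23 and 0.42. With background scaling the medians of the combination against vehicle and against fenretinide are -0.15 and -0.26.

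Of the 10 highest ratios of the combination against vehicle, ranked by the lower counting bound among intervals with at least 100 fragments, 8 lay at intervals with 0.574 to 4.32 vehicle fragments per kb, against a median of 19.6 over the intervals of these peaks. The other two were an interval near LOC284412 with 17.1 and MIR4522 with 58.8 vehicle fragments per kb. ZNF562, a zinc-finger gene on chromosome 19, held 521 fragments with the combination, 765 with GSK-126, 55 with fenretinide and 14 with vehicle, a combination ratio of 40.3 (23.8 to 74.3). ZNF85, of the same class, had 632 fragments with the combination, 894 with GSK-126, 74 with fenretinide and 20 with vehicle, and a ratio of 34.2 (21.98 to 56.4). The peak annotated to ZNF85 is intergenic and lies 110 kb from the gene start. ZNF267 on chromosome 16 had 505 with the combination, 712 with GSK-126, 51 with fenretinide and 19 with vehicle, and a ratio of 28.8 (18.2 to 48.2). At all 3 the fenretinide share was also above vehicle, by 3.56 (1.95 to 6.92) at ZNF562, 3.35 (2.02 to 5.80) at ZNF85 and 2.43 (1.41 to 4.36) at ZNF267. Of the 10 highest, 3 were neighbouring intervals within 16.7 kb near LOC284412 on chromosome 19, with ratios of 43.5 (25.2 to 82.3), 29.0 (21.7 to 39.7) and 29.3 (19.1 to 47.0). The rest were near LOC102723475 on chromosome 21 at 27.6 (23.7 to 32.4), LOC101927209 on chromosome 4 at 22.4 (20.01 to 25.2), LOC101926972 on chromosome 15 at 31.8 (18.3 to 60.2), and MIR4522.

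In all, 5 intervals had a count of 0 with vehicle. They were 2 near LOC100134317 and 1 near LOC284412 on chromosome 19, 1 near AC159540.1 on chromosome 2 and 1 at DUX4L4 on chromosome 4. At DUX4L4, a copy in the DUX4 array, there were 49 fragments with the combination, 105 with GSK-126, 2 with fenretinide and 0 with vehicle. With a floor of 3 counts in place of the vehicle 0, the combination share was 17.7-fold higher. The lower bound of the counting interval was 13.9-fold. At the denser of the LOC100134317 peaks, rank 60, the counts were 80 with the combination, 97 with GSK-126, 2 with fenretinide and 0 with vehicle. With the same floor the combination share there was 28.9-fold higher. These counts are small, and the copies of the DUX4 array are close to identical in sequence.

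The 10 lowest ratios, ranked by the upper counting bound, lay at intervals with 21.6 to 60.7 vehicle fragments per kb, and 9 of these intervals were longer than the median of 13152.5 bp. Near AC068858.1 on chromosome 11 the counts were 1062 with the combination, 967 with GSK-126, 1905 with fenretinide and 2361 with vehicle, a combination ratio of 0.487 (0.453 to 0.524). MIR6843 at 0.499 (0.467 to 0.533) and MIR6720 at 0.499 (0.434 to 0.573) were also called lower. The remaining interval called lower, near POTEM, a gene of a primate-specific ankyrin repeat family, had only 15 fragments with the combination, 32 with GSK-126, 30 with fenretinide and 37 with vehicle, under the 100 fragments required of the 10 lowest. Among those 10, GNAS-AS1, an antisense transcript of the imprinted GNAS locus, had 3099 fragments with the combination, 2921 with GSK-126, 5664 with fenretinide and 6191 with vehicle. Its ratio of 0.542 (0.519 to 0.566) missed the 2-fold rule. The same held near FCAR, encoding an Fc receptor for IgA, at 0.552 (0.523 to 0.583). It held as well near GFRA2, a co-receptor for the neurotrophic factor neurturin, at 0.548 (0.506 to 0.592), VANGL2, a planar cell polarity protein, at 0.552 (0.506 to 0.601), and HLA-E, a nonclassical MHC class I molecule, at 0.558 (0.515 to 0.604). ALPP, encoding placental alkaline phosphatase, at 0.531 (0.467 to 0.602) and LOC100506384 at 0.589 (0.575 to 0.603) complete the 10. In these 10 intervals vehicle exceeded the combination, and the interval near LOC100506384 is 433129 bp long, of which the peak itself spans 15392 bp. The peak spans 6722 of 65166 bp at AC068858.1, 5432 of 107850 bp at MIR6843, 8782 of 130399 bp at GNAS-AS1 and 4664 of 134080 bp at FCAR. At MIR6720 it spans 8126 of 10807 bp. Most of these low ratios thus describe long intervals and not the peak alone.

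**Figure D3:**
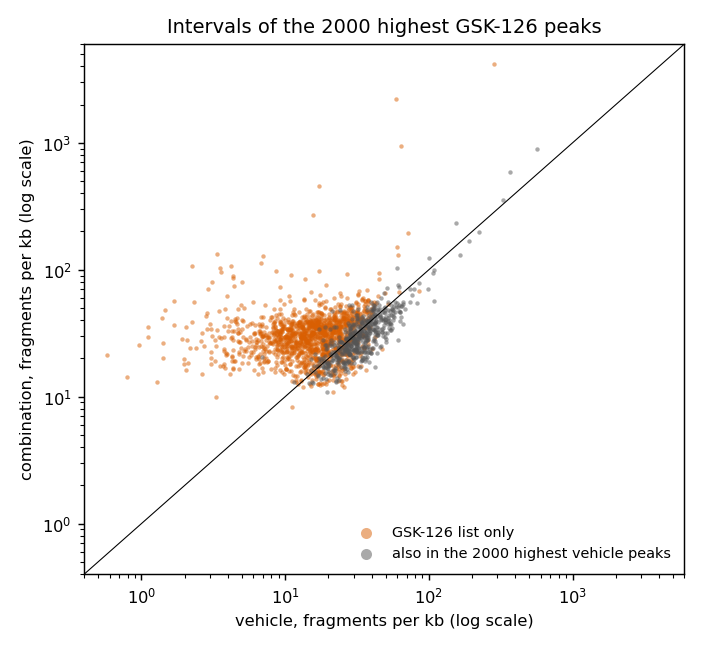
Fragments per kb with the combination (vertical log axis) against vehicle (horizontal log axis), 1 point per interval of the 2000 peaks with at least 1 vehicle fragment, and the line of equal density. At grey points a GSK-126 peak of the 2000 overlaps one of the 2000 highest scoring vehicle peaks, and orange points are the rest. Grey points have a median of 29.1 for the combination and 32.3 for vehicle and orange points 30.1 for the combination and 15.8 for vehicle, where the colours are split by vehicle scores and so set the vehicle medians apart by choice.

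Fenretinide against vehicle showed far smaller differences. Of 1924 intervals tested, 30 (1.56%) were called higher, against 3.31% of all intervals tested, and 2 (0.104%) were called lower, against 2.16%. The median log2 ratio was 0.23 (0.22 to 0.24), against 0.08 over all intervals and 0.12 over intervals of other GSK-126 peaks. With at least 100 fragments in the 2 libraries, 0.601% of the intervals of these peaks were called higher, against 0.348% of all intervals. The log2 ratio was over 0 in 1576 (81.9%) of the tested intervals, against 56.6% of all intervals tested and 62.3% of those of other GSK-126 peaks. Scaling lowered the median to 0.10 with DESeq2 size factors, 0.11 with TMM factors and 0.09 to background, where that of all intervals was -0.04, -0.04 and -0.05.

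Ranked by the lower counting bound among intervals with at least 100 fragments in the 2 libraries, the 5 highest fenretinide ratios were at MIR4522, LOC102723475 and 3 intervals near ANKRD26P1. At LOC102723475 the interval held 4336 fragments with the combination, 5781 with GSK-126, 590 with fenretinide and 170 with vehicle, a fenretinide ratio of 3.14 (2.64 to 3.75). The lowest was near FLJ36000 on chromosome 17, with 185 fragments with the combination, 296 with GSK-126, 137 with fenretinide and 279 with vehicle and a fenretinide ratio of 0.444 (0.360 to 0.547). There fenretinide was the lowest library, the interval was called lower, and the combination ratio against vehicle was 0.718 (0.593 to 0.868). Near ABCC12, a transporter gene of the ABC family, there were 239 fragments with the combination, 341 with GSK-126, 97 with fenretinide and 151 with vehicle, and the fenretinide ratio was 0.581 (0.446 to 0.755). KCNN2, AC068858.1 and MIR6843 were the other 3 lowest with at least 100 fragments. The second interval called lower, at TCEB3C, an elongin gene of a multicopy family, had 40 fragments with the combination, 53 with GSK-126, 23 with fenretinide and 42 with vehicle. The comparison shares its vehicle library with the combination against vehicle.

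Combination against fenretinide, the effect of adding GSK-126 to the retinoid, gave 497 of 1954 intervals (25.4%) called higher, against 18.6% of all intervals tested, and 0 called lower, against 12.1%. No test across replicates stands behind the 0, since each group had 1 library, and a ratio threshold of 1.5 called 1.54% lower. The median log2 ratio was 0.42 (0.38 to 0.46), against -0.03 over all intervals and 0.19 over intervals of other GSK-126 peaks, and background scaling turned it to -0.26. Near LOC284412 the 2 highest scoring peaks of that cluster had combination ratios of 25.5 (19.7 to 33.8) and 16.9 (12.1 to 24.3) against fenretinide. At LOC102723570, where fenretinide alone was high, the ratio was 1.27 (0.838 to 1.94).

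In the comparisons that use the library behind the choice, 867 of 1958 intervals were called higher and 9 lower with GSK-126 against vehicle, where all intervals gave 25.9% and 21.6%. With the combination against GSK-126, 0 were called higher and 22 lower, where all intervals gave 2.48% and 1.82%. The medians were 0.83 and -0.13 on the log2 scale. Regions picked for a high value in one library have a high value there by choice, so nothing is read from these counts.

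The highest scoring peaks of the other libraries overlapped these in part. The 2000 peaks chosen by the same rule from the combination list overlapped 57.8% of the GSK-126 ones by at least 1 bp (57.9% of their own list). For fenretinide the shares were 29.8% of the GSK-126 list and 30.2% of the fenretinide list, and for vehicle 28.3% of the GSK-126 list and 28.6% of the vehicle list. Any peak of the combination list overlapped 1999 of the 2000 regions, any fenretinide peak 1942 and any vehicle peak 1908. Among other GSK-126 peaks those shares were 81.2%, 70.9% and 65.7%. The chosen peaks were also longer, and the part of length in these shares was not tested. Where a vehicle peak was present its best score stood at a median percentile of 96.8 within the vehicle list.

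Since the vehicle list can choose regions by the same rule, the combination against fenretinide compares both choices in libraries that neither used. In the 1398 intervals with a top peak of GSK-126 alone, the median log2 ratio was 0.72 (0.68 to 0.77). Of 1394 tested, 494 (35.4%) were called higher and 0 lower, where all intervals tested gave 18.6% and 12.1%. In the 560 intervals with top peaks of both the median was -0.12 (-0.14 to -0.09), with 3 (0.536%) higher and 0 lower. In the 1344 intervals with a top peak of vehicle alone it was -0.35 (-0.38 to -0.33). Of 1342 tested, 6 (0.447%) were called higher and 112 (8.35%) lower, the latter below the share over all intervals. Median fragments per kb were 30.4 with the combination and 21.7 with fenretinide in the first set, 28.9 and 36.7 in the second, and 21.8 and 33.2 in the last. With background scaling every one of these ratios is lower by 0.68 on the log2 scale, which turns the first median's lead over 0 to 0.04 and keeps the order of the 3.

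In 91 intervals the GSK-126 peak had no vehicle peak over it. Their median was 36.7 fragments per kb with the combination, 6.17 with fenretinide and 3.51 with vehicle, and 79 of 87 tested were called higher with the combination against fenretinide, against 18.6% of all intervals and 23.2% of intervals of other GSK-126 peaks. The vehicle list helped define these intervals, so only the comparison without vehicle is counted.

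By annotation, 68.8% of the 2000 peaks were intergenic, 29.2% intronic, 0.60% exonic, 0.95% at promoters and 0.45% at transcript ends, each class by the peak centre. The other GSK-126 peaks had 62.8%, 34.5%, 1.14%, 0.948% and 0.677% in these classes. The 2000 highest peaks of the other libraries were alike, so these shares are not particular to GSK-126. Intergenic were 69.25% (combination), 68.85% (fenretinide) and 67.85% (vehicle), and at promoters 0.65%, 0.55% and 0.8%. A gene start lay within 10 kb of 8.7% of the chosen peaks and 11.3% of the others, and a RefSeq gene span overlapped 48.3% and 52.7%. The 19 promoter peaks had a median log2 ratio of 0.93 (-0.34 to 1.72) for the combination against vehicle, with 9 called higher. These peaks were thus as rare at promoters as other peaks of the library, and the interval of their median spans 0.

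Distance to the nearest start went with the combination ratio. Intervals over 100 kb away had a median log2 ratio of 1.00 (0.92 to 1.08) against vehicle, with 397 of 789 (50.3%) called higher and 0 lower. Those at 10 to 100 kb had 0.41 (0.34 to 0.46), with 277 of 996 (27.8%) higher and 4 lower, and those within 10 kb had 0.56 (0.18 to 0.80), with 65 of 168 (38.7%) higher and 0 lower. Intervals of other GSK-126 peaks had medians of 0.77 over 100 kb away, 0.05 at 10 to 100 kb and -0.33 within 10 kb. Called higher among them were 40.7% over 100 kb away, 22.99% at 10 to 100 kb and 16.2% within 10 kb, and called lower 2.12%, 11.4% and 23.2%. The set of high scores therefore exceeded the others by the most near gene starts and by the least far from them. With fenretinide against vehicle the medians were 0.33, 0.16 and 0.11 for these intervals and 0.25, 0.04 and -0.10 for the others. Background scaling shifts the combination values by -0.81 and leaves their differences as they are.

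**Figure D4:**
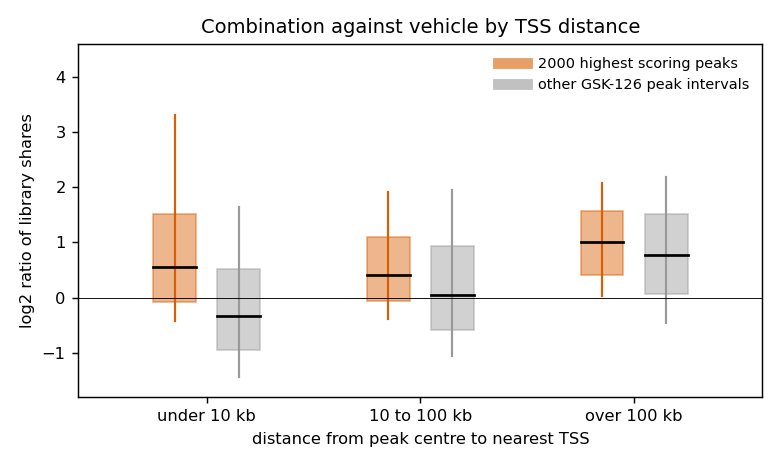
Log2 ratio of the combination against vehicle (vertical axis) by distance from the peak centre to the nearest gene start, for intervals of the 2000 peaks and of other GSK-126 peaks. Boxes span the middle 50%, lines the 10th to 90th percentile and black bars the median, which is 0.56 against -0.33 within 10 kb and 1.00 against 0.77 beyond 100 kb. With background scaling all values are lower by 0.81, so only the far median of the 2000 peaks stays above 0.

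Within the 2000, the rank by score was weakly tied to the ratios. For the combination against vehicle the first 100 ranks had a median log2 ratio of 1.02 (0.72 to 1.66), the next up to rank 500 of 0.62, the next up to rank 1000 of 0.69 and the rest up to rank 2000 of 0.63. Called higher were 52.0%, 35.5%, 37.8% and 37.4%. The first 100 thus stood above the rest, which were alike. For fenretinide against vehicle the shares called higher were 13.2%, 2.11%, 0.414% and 0.824%, and the medians 0.18, 0.17, 0.25 and 0.23.

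The chromosomes were used unevenly. Chromosome 5 held 214 of the 2000 peaks (10.7%, with 6.95% of the interval length), chromosome 11 held 161 (8.05%, with 5.66%) and chromosome 2 held 145 (7.25%, with 8.36%). Chromosome 4 held 17 (0.85%, with 3.96%). Of the 2000 highest peaks of each other library, chromosome 5 held 255 (combination), 211 (fenretinide) and 156 (vehicle). Chromosome 4 held 12, 12 and 24 of them. Chromosome 14 gave 1.82% of its GSK-126 peaks to the set, against 0.986% over all. Fragments per kb over all intervals of chromosome 5 were 13.7 with the combination, 13.8 with GSK-126, 15.8 with fenretinide and 13.6 with vehicle, and on chromosome 4 they were 10.1 with the combination, 10.2 with GSK-126, 10.0 with fenretinide and 8.49 with vehicle. The part of DNA copy number in these levels was not tested. Chromosome 19, which carries many zinc-finger genes, held 34 peaks, whose intervals had a median log2 ratio of 2.43 for the combination against vehicle.

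**Figure D5:**
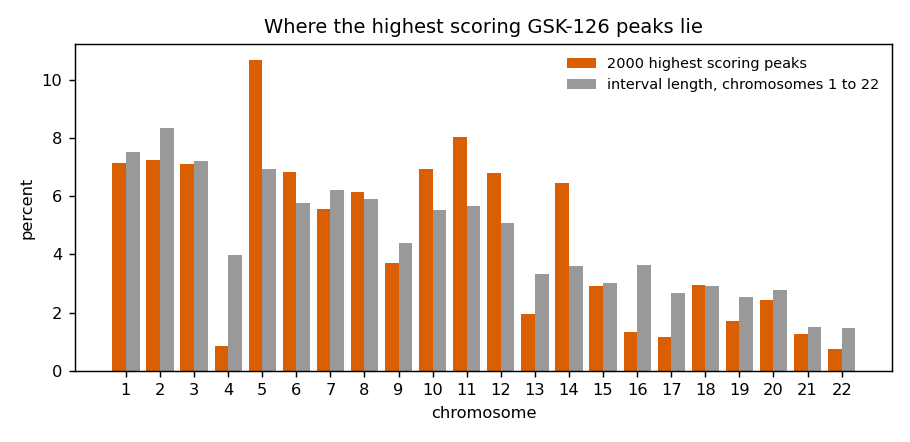
Percent of the 2000 highest scoring GSK-126 peaks (orange) beside the percent of all interval length (grey) on each of chromosomes 1 to 22. Chromosome 5 has 10.7% of the peaks with 6.95% of the length, and chromosome 4 has 0.85% with 3.96%.

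The 2000 peaks lay in 453 windows of 5 Mb, with a median of 3 and up to 18 in a window. The other GSK-126 peaks were not counted by window, so clustering was not tested. The window of chromosome 14 from 40 to 45 Mb held 17 peaks, among them 11 whose nearest gene is FSCB, encoding a protein of the sperm fibrous sheath. Those 11 lie 34775 to 1251156 bp from its start. The 11 FSCB intervals together held 4665 fragments with the combination, 5654 with GSK-126, 2306 with fenretinide and 1418 with vehicle, and their log2 ratios for the combination against vehicle ran over 1.27 to 2.82. Over all 17 intervals of the 2000 peaks in the window the median was 1.89. The window of chromosome 11 from 10 to 15 Mb, with 18 peaks, had a median of -0.27. It holds PDE3B, a cyclic nucleotide phosphodiesterase, whose span is overlapped by 5 peaks with log2 ratios from -0.57 to 0.21. Their intervals had 4382 fragments with the combination, 4101 with GSK-126, 6935 with fenretinide and 6213 with vehicle.

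After FSCB, the nearest genes with most peaks were ANKRD26P1, MIR4522, LOC102723570 and IZUMO3, with 6 each. PELO and CSMD3 also had 6 and came after them only by their lower top score. CSMD3, a large gene of a complement-control protein family, had the highest minimum ratio of these, with 1882 fragments with the combination, 2306 with GSK-126, 557 with fenretinide and 391 with vehicle over 6 intervals. All 6 had log2 ratios of 2.03 to 3.04 for the combination against vehicle, while those of PELO ran over 0.41 to 1.34. The peaks lie 192225 to 1129791 bp from the start of CSMD3 and 254994 to 698509 bp from that of PELO. By gene span, CTNNA3, encoding alpha-T-catenin, held the most with 8, and EYS, a gene of photoreceptors, 6. FHIT, a long gene at a fragile site, and LINGO2, encoding a neuronal membrane protein, held 5 each. The combination log2 ratio against vehicle ran over -0.14 to 2.65 in CTNNA3 and 0.04 to 2.51 in EYS, so single genes held both near-equal and raised intervals. GPC5, a glypican gene, had 4 peaks, with 1849 fragments with the combination, 2081 with GSK-126, 748 with fenretinide and 502 with vehicle. The lncRNA gene CYKILR on chromosome 19 also held 4, with only 200 fragments with the combination, 320 with GSK-126, 12 with fenretinide and 8 with vehicle. At 2 of its intervals the vehicle count was 0, and the other two had combination log2 ratios of 2.996 and 4.13 against vehicle.

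Of the 25 gene lists, which were set with earlier results of these data known, 310 peaks had a nearest gene on one. Each list is given with the count of its peaks called higher for the combination against vehicle and the median log2 ratio, to be read beside 0.66 over the intervals of all 2000 peaks and 0.06 over all intervals, with 24.1% called higher. Within 10 kb of a gene start lay 3 zinc-finger peaks, 2 of receptors and synaptic adhesion and 11 of olfactory receptors. The cadherin, axon guidance, ion channel and developmental factor lists had 0 there. Intervals of the 2000 peaks over 100 kb from a start had a median of 1.00 with 50.3% called higher. The part of distance in the list medians was not tested. Zinc-finger genes had 31 peaks, 1.39% of the GSK-126 peaks nearest to such genes. Of their 30 intervals 19 were called higher and 0 lower, with a median of 1.46 (0.82 to 3.15). ZFP37 held the 2 best scores, and its higher one had 649 fragments with the combination, 1078 with GSK-126, 62 with fenretinide and 57 with vehicle. ZNF326 went the other way, with 595 fragments with the combination, 563 with GSK-126, 986 with fenretinide and 825 with vehicle and a ratio of 0.781 (0.702 to 0.869).

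Genes of glutamate and GABA receptors and synaptic adhesion had 31 peaks, 0.787% of theirs. Of their 31 intervals 26 were called higher and 0 lower, with a median of 1.65 (1.26 to 2.097). LRRTM3, a synaptic adhesion gene that lies within an intron of CTNNA3, had 479 fragments with the combination, 533 with GSK-126, 161 with fenretinide and 82 with vehicle, a ratio of 6.33 (5.00 to 8.10). GRM3, encoding a metabotropic glutamate receptor, had 85 with the combination, 109 with GSK-126, 55 with fenretinide and 29 with vehicle, and a ratio of 3.18 (2.06 to 5.02). The peaks annotated to LRRTM3 and GRM3 lie 480 kb and 567 kb from the gene starts.

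Axon guidance genes had 11 peaks, of which 8 were called higher and 0 lower, with a median of 1.97 (0.25 to 2.13). EPHA3, an ephrin receptor, had 556 fragments with the combination, 627 with GSK-126, 212 with fenretinide and 148 with vehicle, a ratio of 4.07 (3.39 to 4.91). ROBO1, a Slit receptor, was at 4.04 (3.01 to 5.49) and SEMA6D, a semaphorin, at 2.34 (1.95 to 2.81). These 3 peaks lie 891, 1031 and 972 kb from the gene starts. Cadherins and non-clustered protocadherins had 11 peaks, 9 called higher and 0 lower, with a median of 1.75 (0.57 to 2.37). CDH12 was at 4.02 (2.91 to 5.65), while CDH20 at 1.47 (1.28 to 1.70) and FAT3 at 1.49 (1.28 to 1.74) did not reach 2-fold. Ion channels had 20 peaks, with 9 of 19 intervals called higher and a median of 0.92 (0.06 to 1.59). KCNA4, a potassium channel, was at 1.46 (1.23 to 1.72), TRPM3, a cation channel, at 1.76 (1.53 to 2.03) and its relative TRPC7 at 0.958 (0.864 to 1.06). These peaks lie 599, 246 and 428 kb from the gene starts. Assigned by gene span, the median against vehicle fell to 0.0635 for ion channels (9 peaks) and 0.736 for axon guidance (3 peaks). It fell to 1.197 for receptors and synaptic adhesion (31 peaks), and rose to 1.83 for cadherins (7) and 2.84 for zinc-finger genes (21). The ion channel and axon guidance medians thus depended on how peaks were assigned to genes.

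Other lists lay nearer to equality by nearest gene. Olfactory receptors had 53 peaks, 2.77% of theirs, with 11 of 51 intervals called higher and a median of 0.28 (-0.07 to 0.46). OR52B4 had 302 fragments with the combination, 319 with GSK-126, 413 with fenretinide and 361 with vehicle, a ratio of 0.906 (0.775 to 1.06), and OR51G1 was at 1.23 (1.07 to 1.42). Cytochrome P450 and UGT genes had 13 peaks, 2.56% of theirs, with 1 of 11 intervals higher and a median of -0.09 (-0.52 to 0.97). The 1 called higher was near CYP7B1, an oxysterol hydroxylase, with 566 fragments with the combination, 633 with GSK-126, 309 with fenretinide and 188 with vehicle, a ratio of 3.26 (2.76 to 3.87). CYP2C8 was at 0.939 (0.875 to 1.01) and CYP2R1, a vitamin D hydroxylase, at 0.824 (0.746 to 0.909). Developmental transcription factors had 19 peaks, 3 called higher and 0 lower, with a median of 0.33 (0.21 to 0.84) that turned to -0.49 with background scaling. The 3 called higher were near DLX2 at 5.61 (4.36 to 7.31), PAX6 at 2.22 (1.79 to 2.75) and TBX15 at 2.13 (1.85 to 2.46), factors of forebrain, eye and skeletal development. Their peaks lie 89.1, 67.6 and 413 kb from the gene starts. ISL1, a LIM-homeodomain factor, was at 1.76 (1.53 to 2.02), SOX6 at 1.19 (1.08 to 1.32) and VSX1, a homeodomain factor of the retina, at 0.654 (0.605 to 0.708). Collagens, metalloproteinases and ADAMTS genes had 11 peaks and a median of 0.19 (-0.49 to 1.21), with COL9A1 at 0.646 (0.603 to 0.692), COL22A1 at 0.709 (0.589 to 0.852) and ADAMTS20 at 2.08 (1.71 to 2.55). The other 3 called higher were near MMP8, encoding neutrophil collagenase, at 3.54 (2.74 to 4.63), COL11A1 at 2.32 (1.90 to 2.83) and COL12A1 at 2.14 (1.81 to 2.54). Their peaks lie 21.6, 279 and 543 kb from the gene starts.

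Very long genes at fragile sites had 10 peaks, 4 called higher, with a median of 0.78 (0.30 to 2.49) that turned to -0.04 with background scaling. FHIT gave 2 of its top 3, at 1.54 (1.39 to 1.69) and 2.095 (1.80 to 2.45), and CTNNA3 the other at 2.06 (1.75 to 2.44). The 2 largest of the 4 called higher were both near IMMP2L, encoding a mitochondrial inner membrane peptidase, at 5.95 (4.37 to 8.24) and 5.66 (4.03 to 8.10). MicroRNA genes had 81 peaks, with 33 of 79 intervals called higher, 2 lower and a median of 0.82 (0.40 to 1.18). Besides MIR4522, MIR3679 was at 0.963 (0.892 to 1.04), and near MIR4283-1 there were 33 fragments with the combination, 53 with GSK-126, 8 with fenretinide and 1 with vehicle. Only 1 of the microRNA peaks lay within 10 kb of the gene.

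Small lists were mixed. Defensin and USP17-like genes had 6 peaks with 3 called higher, namely USP17L22 at 2.04 (1.34 to 3.17), USP17L24 at 2.34 (1.33 to 4.27) and DEFB115 at 2.02 (1.75 to 2.33). These are multicopy families as well. DUX4-like genes had 2 peaks of only 11, DUX2 with 54 fragments with the combination, 97 with GSK-126, 2 with fenretinide and 3 with vehicle, and DUX4L4 as above. Primate-expanded repeat families had 6 peaks, 0 higher and POTEM lower, with POTEG at 0.908 (0.793 to 1.04), NBPF6 at 1.37 (1.24 to 1.51) and NPIPA7 at 0.759 (0.612 to 0.940). WNT, BMP and growth factor ligands had 2, FGF7 at 3.83 (2.94 to 5.04) and GDF6 at 1.04 (0.926 to 1.17). Interleukins and chemokines had 2, CCL28 at 3.38 (2.602 to 4.42) and CXCL12 at 1.27 (1.14 to 1.41). KRTAP5-7, a keratin-associated protein gene, was at 1.27 (1.12 to 1.44), and ATF7IP, a partner of the histone methyltransferase SETDB1, at 1.12 (1.04 to 1.198).

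No peak of the 2000 was nearest to a clustered protocadherin (52 GSK-126 peaks in all), a HOX gene (30), a serpin (122), a gene of the retinoid pathway (261), a Polycomb subunit (68), a urothelial or luminal marker (29) or one of the housekeeping genes (15). At 0.986% of all peaks, lists of this size would hold few or none, so these counts of 0 are not read as a result about the lists.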

How the data were processed

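H3K27me3 ChIP-seq of T24 cells was analysed in 4 libraries, 1 per condition. The authors deposited raw fragment counts for 273664 consensus intervals, made with featureCounts 2.0.1, per the file headers, which record paired, unstranded counting, 0.2 as the smallest overlap fraction, and fragments counted once in each interval they touch. They also deposited a list of peaks per library with a peak score, whose scale is not stated, annotated with HOMER, per the file headers, with interval lengths and distances to the nearest gene start in bp. Peaks were called with MACS2 2.1.0 on build hg38, per the submitters' processing notes. The aligner and the control for peak calling are not given in the sources used here. Coordinates are 1-based.

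The 2000 peaks were ranked by score on chromosomes 1 to 22. A consensus interval belonged to them where it overlapped a peak by at least 1 bp and was counted once. Ratios of library shares carry a 95% exact Clopper-Pearson interval, which covers counting error only. Log2 ratios used a pseudocount of 0.5. The floor of 3 counts in place of 0 was used only for the fold values of intervals at 0 with vehicle. Intervals of medians come from order statistics over intervals, which are not replicates. The 5 comparisons were made without p-values, since there is 1 library per condition. Named peaks were the 10 highest scores, the 10 highest and 10 lowest for the combination against vehicle and the 5 highest and 5 lowest for fenretinide against vehicle, ranked by the counting bound nearest to 1 with at least 100 fragments. They also took up to 3 top scores per list, the 3 chromosomes with most peaks and the 5 nearest genes with most peaks. One gene that this rule names is not reported here. KCNN2, OR4C46, SORCS3 and ZNF875 were named for their printed promoters, and PELO, CSMD3, PDE3B, EYS, LINGO2, GPC5, CYKILR, chromosomes 4, 14 and 19, the windows of 5 Mb, the 5 intervals at 0 with vehicle, and POTEM, TCEB3C, CYP7B1, DLX2, PAX6, TBX15, MMP8, COL11A1, COL12A1 and IMMP2L after their values were seen. The regions, lists and tests were chosen with earlier results of these data known. Of 1458 nearest-gene symbols, 1146 matched a RefSeq symbol. The calling rule was tested on simulated Poisson counts, which hold counting error and no other variation between libraries. The shares called there are therefore not error rates for the real libraries. In the simulated combination against vehicle, 88% of 100 intervals changed 3-fold were called, and 1.37% of 158586 unchanged ones.

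Alternatives were scaling by TMM factors (edgeR 4.0.16), by size factors (DESeq2 1.42.0) and to background, a ratio of 1.5, other minimum counts and overlaps, the 1000 or 5000 highest scores, and 1 interval per nearest gene. The split of other GSK-126 intervals by distance was added after seeing the data. The software was R 4.3.3 and Python 3.11.15 with scipy 1.17.1, pandas 2.3.3, numpy 2.4.6 and matplotlib 3.10.9.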

Additional observations from a re-analysis of the deposited data

Results flagged for a closer look

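The highest score of the GSK-126 list lies outside chromosomes 1 to 22, so it was not among the 2000 peaks, though the library totals and the values over all intervals include its interval. A peak on an unplaced contig of the assembly, KI270438, scored 14970, above the 4006 of the highest peak on chromosomes 1 to 22. Its interval held 35785 fragments with the combination, 44596 with GSK-126, 4711 with fenretinide and 1542 with vehicle. The GSK-126 ratio against vehicle was 30.7 (29.2 to 32.3), the combination ratio 25.1 (23.9 to 26.5) and the fenretinide ratio 2.77 (2.61 to 2.93). Off chromosomes 1 to 22, 124 of 14833 GSK-126 peaks scored at least 83, the lowest score of the 2000 peaks. The difference rests on 1 library per condition. Repeat content and the input libraries were not analysed, so the part of repeated sequence in these counts was not tested.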

How the results depend on the processing

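With scaling to background, the median log2 ratio turned to -0.15 for the combination against vehicle and -0.26 for the combination against fenretinide. It also gave 0.0638 for GSK-126 against vehicle, 0.0931 for fenretinide against vehicle and -0.18 for the combination against GSK-126. Called higher and lower were then 14.5% and 13.0% (combination against vehicle), 9.72% and 9.01% (combination against fenretinide) and 20.7% and 11.8% (GSK-126 against vehicle). DESeq2 and TMM factors gave medians of 0.53 and 0.50 (combination against vehicle), 0.10 and 0.11 (fenretinide against vehicle) and -0.26 and -0.24 (combination against GSK-126), and TMM gave 0.38 for the combination against fenretinide. Called lower for the combination against vehicle were 0.358% and 0.614%. All these shifts follow from the scaling itself.

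A ratio of 1.5 called 2.87% lower (combination against vehicle), 8.42% higher and 0.260% lower (fenretinide against vehicle), 41.8% higher and 1.54% lower (combination against fenretinide), 4.24% lower (GSK-126 against vehicle) and 4.19% lower (combination against GSK-126). A minimum of 100 fragments called 0.601% higher and 0.0547% lower with fenretinide, and 0.624% lower for the combination against GSK-126. Where peaks cover at least 50% of the interval, the medians were 0.98 (combination against vehicle), 0.30 (fenretinide against vehicle), 0.68 (combination against fenretinide), 1.19 (GSK-126 against vehicle, 0 called lower) and -0.19 (combination against GSK-126). With 1 interval per nearest gene they were 0.56, 0.20, 0.35 and 0.73 for the first 4 of these. The 1000 highest scores gave 0.210% lower with fenretinide and a median of -0.14 for the combination against GSK-126. The 5000 highest gave 0.0631% lower with fenretinide, 0.0417% lower for the combination against fenretinide, 0.895% lower for GSK-126 against vehicle, and 0.582% lower and a median of -0.11 for the combination against GSK-126. The causes were not tested.

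The shares of interval fragments depend on the number of regions. They were 3.71% (combination), 4.26% (GSK-126), 2.35% (fenretinide) and 2.01% (vehicle) where peaks cover at least 50% of the interval, 4.46%, 4.79%, 3.90% and 3.66% for 1000 peaks, and 16.996%, 18.0%, 14.8% and 13.8% for 5000. Of 146 recomputed list medians, 3 whose order-statistic interval left out 0 changed sign. They went to -0.49 (developmental transcription factors) and -0.0373 (fragile-site genes) for the combination with background scaling, and to -0.0166 (ion channels by gene span) for fenretinide. A further 26 left the order-statistic interval of their median, 11 of them with background scaling (-0.90 to 0.84), 5 with DESeq2 factors (0.0490 to 0.259), 5 with TMM (0.0553 to 0.265), 2 by gene span and 3 within 10 kb of a gene start, and 117 did not. Background scaling lowers every median of the combination against vehicle by 0.81. Those of olfactory receptors, collagens and defensins, whose intervals spanned 0, therefore also fell below 0. Of 90 recomputed ratios of named intervals, 75 kept their call and 15, all for the combination against vehicle, newly passed the 2-fold rule as lower. Of 171 other recomputed values, 112 kept direction and call. No paired analysis was possible because each group has 1 library, and no library could be left out for the same reason. Depth limits short intervals, and the fold values of those at 0 with vehicle rest on the floor of 3 counts.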
